A study of Mus musculus with 20 samples.

Results

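Ribosome footprints were compared with the cytoplasmic RNA of the same lysates in the hippocampus of wild-type mice. The comparison used 10 of the 20 libraries of the series, 5 of ribosome footprints and 5 of input RNA, chosen by the wild-type genotype and the assay in their labels. No library of the Qtrt1 knockout animals entered any value. The animals were 3 females, aged 6 months and 22 days (female 1) or 6 months and 21 days (females 2 and 3), and 2 males, aged 6 months and 18 days (male 1) and 5 months and 16 days (male 2). All carried the wild-type genotype, and the labels name no strain and no treatment of the animals. The hippocampi were lysed in a buffer that holds cycloheximide, an inhibitor that stops cytosolic ribosomes on the mRNA, and each lysate was split. One share was treated with RNase I, which leaves the fragments covered by ribosomes, and was made into small RNA libraries. Another share was depleted of ribosomal RNA, fragmented, and made into RNA libraries from random primers.

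A ribosome covers a fragment of about the length of a small RNA, and the number of such fragments from an mRNA, set against the amount of that mRNA, is the usual measure of how densely it is loaded with ribosomes. Loading is known to depend on how often ribosomes start at the main start codon. Upstream open reading frames, which are short reading frames in the 5′ leader, take up scanning ribosomes, and an iron responsive element in the leader binds proteins that block the start. mRNAs of ribosomal proteins and elongation factors begin with a run of pyrimidines, the 5′ terminal oligopyrimidine (TOP) element, through which growth signals set their translation. Many proteins of neuronal synapses are translated from mRNAs carried into dendrites.

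Sequences of 2 kinds help to read the ratios, and both were read from the GENCODE M21 mouse transcripts (GRCm38). The first kind is the opening 28 bases of the coding sequence, about 1 footprint long, with the start codon in capitals. It is shown for 4 genes with low ratios and then for 3 genes with high ratios.
Gapdh: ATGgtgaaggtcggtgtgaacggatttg
Rpl19: ATGagtatgctcaggctacagaagaggc
Cycs: ATGggtgatgttgaaaaaggcaagaaga
Eef1a1: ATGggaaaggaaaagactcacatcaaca
Uqcrq: ATGggccgcgagtttgggaacctggcgc
Fxyd7: ATGgccaccccaacccagagccccacaa
Camk2n2: ATGtccgagatcctaccctacggtgagg

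The Gapdh 28-mer (chromosome 6, 125163432 to 125165293, minus strand, across 2 exons) occurs in transcripts of 49 other annotated genes, 45 of them pseudogenes. The Rpl19 28-mer (chromosome 11, 98026986 to 98027845, plus strand, across 2 exons) occurs in 4 other genes, all of them pseudogenes. The Cycs 28-mer (chromosome 6, 50565633 to 50565660, minus strand) occurs in 3 other genes and the Eef1a1 28-mer (chromosome 9, 78480627 to 78480654, minus strand) in 5. Those of Uqcrq (chromosome 11, 53430662 to 53430689, minus strand), Fxyd7 (chromosome 7, 31051359 to 31051386, minus strand) and Camk2n2 (chromosome 16, 20621167 to 20621194, minus strand) occur in no other annotated gene.

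The second kind is the longest upstream reading frame of mRNAs known for control by such frames, with every base printed in exons of the 5′ leader. For Amd1 the whole frame is printed with its start and stop codons in capitals, and for the others 30 bases around the upstream ATG, which is in capitals.
Amd1: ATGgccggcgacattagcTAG
Atf4: taagccATGgcgctcttcacgaaatccagc
Ddit3: tatatcATGttgaagatgagcgggtggcag
Ppp1r15a: tgggggATGgggcggcctttgagggaggac
Atf5: gccgccATGgagtcctccaccttcgccttg
Ppp1r15b: gccgggATGgacctaaccgcggtcgccacc

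The Amd1 frame (chromosome 10, 40302155 to 40302175, minus strand) is 6 codons long and ends 296 bases before the main start. The Atf4 frame (window at chromosome 15, 80255675 to 80256225, plus strand, across 2 exons) has 59 codons and runs 83 bases past the main start, in another frame. The Ddit3 frame (window at chromosome 10, 127290823 to 127290852, plus strand) has 34 codons and ends 26 bases before the main start. The Ppp1r15a frame (window at chromosome 7, 45525960 to 45525989, minus strand) has 72 codons, and its leader holds 7 upstream ATGs in all. The Atf5 frame (window at chromosome 7, 44815264 to 44816412, minus strand, across 2 exons) has 58 codons and runs 56 bases past the main start. The Ppp1r15b frame (window at chromosome 1, 133131511 to 133131540, plus strand) has 51 codons and ends 74 bases before the main start.

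The footprint libraries held 5357812 to 15517982 counts, with male 1 deepest, and the input libraries 10545968 to 13637370. Where levels are given below they are CPM, a gene's count divided by its library's total and brought to a common total, with the totals adjusted by the trimmed mean of M values, and a ratio is footprint over input on the log2 scale, so 1 is a 2-fold higher share of footprints than of input RNA. The scaling sets the bulk of genes near 0, so a ratio is relative to the other mRNAs and is no absolute number of ribosomes. Hippocampal field markers were present in every library, with a summed input level of 1096 to 1489 CPM over 20 genes. Markers of adjacent tissue varied between animals. Choroid plexus genes summed to 396 and 475 CPM of input in females 1 and 2 and to 2774 to 5004 CPM in the other 3 animals, and striatum markers to 420 and 427 CPM in the males and 790 to 1413 CPM in the females. In bulk tissue fewer cells of a type and less RNA per cell cannot be told apart. Among genes with 1 annotated transcript, the coding-sequence footprints that the authors deposited separately came to a median of 94.9% to 96.4% of the table's footprint counts (418 to 631 genes per library).

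Of 18054 genes in the table, 13447 passed the filter on low counts. In edgeR's quasi-likelihood test with the animal as a block, 10511 of them (78.2%) had a Benjamini-Hochberg adjusted p under 0.05, 5262 higher in footprints (39.1%) and 5249 lower (39%). At a fold of at least 2, 1992 genes were higher (14.8%) and 2512 lower (18.7%). Scaling by library totals alone moved the median of all genes from 0.01 to -0.20 and the split to 4225 higher and 6329 lower. Ratios from the 5th to the 95th percentile ran from -2.19 to 1.56, a 13.5-fold span, with quartiles at -0.73 and 0.66. The SD of a gene's ratio between the 5 animals had a median of 0.24, against an SD of 1.26 over genes, and 10097 genes (75.1%) had the fitted direction in every animal. Ratios of any pair of animals correlated across genes with Spearman's rho between 0.874 and 0.924, a description over 13447 genes that share libraries, not a test.

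Genes whose coding sequence is repeated elsewhere had low ratios. Over 13417 tested genes matched to GENCODE, the share of coding 28-mers found in any transcript of another gene was computed. The median ratio was 0.14 among the 7998 genes with none, -0.14 among the 2125 with up to 5%, -0.02 at 5 to 20% (1386 genes), -0.25 at 20 to 50% (894 genes), -0.73 at 50 to 90% (686 genes) and -2.03 above 90% (328 genes). In the last set 77.1% were called lower. Of 26 tested genes without a single footprint in any library, 19 belonged to that set and 2 to the genes with at most 5% shared.

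**Figure D1:**
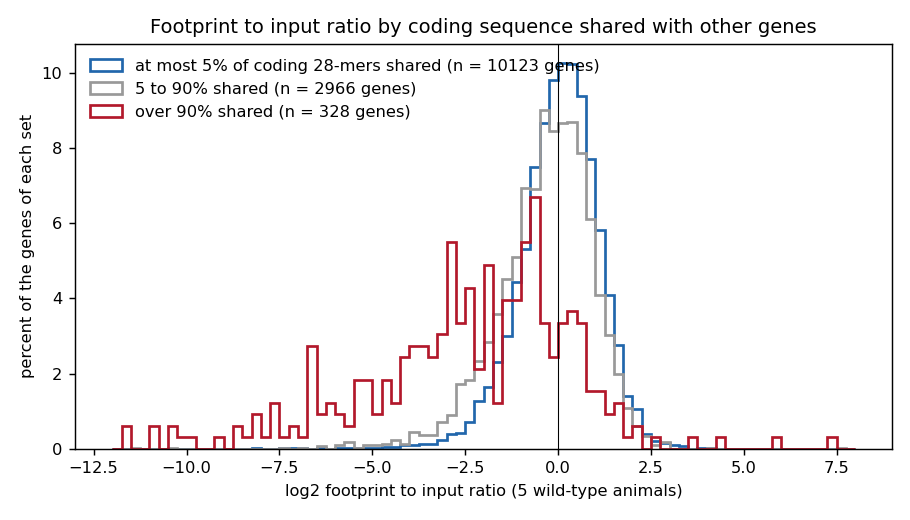
Distribution of the log2 footprint to input ratio (x axis) as the percent of genes in each of 3 sets (y axis), by the share of coding 28-mers that occur in other genes. The set with over 90% shared reaches far below -5, while the 10123 genes with at most 5% shared lie mostly between -2 and 2.

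Gapdh, the glycolytic enzyme often used as a reference, had 0 footprints in each of the 5 libraries at 21.9 to 25.4 CPM of input, or 1560 input counts in total. Against a floor of 3 footprints over the group its ratio was at least 306-fold lower in footprints. Cycs, cytochrome c, had 0 footprints against 1423 input counts, at least 280-fold lower, and Rpl35, a protein of the large ribosomal subunit, 0 against 2404, at least 472-fold lower. Rpl19, of the same subunit, had 1 footprint against 7943 input counts, an input over footprint fold of 4681 with a 95% counting interval of 840 to 184928. In these 4 genes 98.6% to 100% of the coding 28-mers occur in other genes. Gene list medians given below are the same with such genes at their bound.

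The 12 lowest ratios among genes at 10 CPM or more were those of Rpl35, Rpl19, Gapdh, Cycs, Rps28, Igip, Sumo2, Rpl29, Rpl13, Pgk1, Rpl21 and Rps12, and in 11 of them nearly every coding 28-mer was shared. The genes with 0 footprints have only a bound, so no order is given among them. Whether reads of such genes were dropped or divided by the authors' counting is not known here, and its part in these ratios was not tested. List counts below are therefore also given, for most lists, over the 10123 genes with at most 5% shared coding 28-mers, termed low-sharing genes, of which 77.2% were called in either direction, 41.9% higher and 35.2% lower.

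Igip, the one low-sharing gene of the 12, encodes a small protein that induces the antibody class IgA and has 48 upstream ATGs in its annotated leader. It had 3 footprints against 1705 input counts, an input over footprint fold of 335 with a counting interval of 114 to 1626. Its 3 footprints were all in female 1.

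The highest ratios belonged mostly to mRNAs with short coding sequences. Uqcrq, a small subunit of respiratory complex III, reached 192, 166 and 221 CPM of footprints in females 1 to 3 and 269 and 316 CPM in males 1 and 2, against 16.3, 15.0, 14.2, 15.7 and 18.5 CPM of input. The assays did not overlap in any animal, and the ratio was 3.84 (SE 0.11, adjusted p = 2.4e-13). Fxyd7, a small regulator of the sodium pump, stood at 190.3, 173, 202, 222 and 295 CPM of footprints in the same order of animals. Its input levels were 14.9, 11.4, 14.5, 11.2 and 14.8 CPM, and its ratio of 4.00 (SE 0.11, adjusted p = 2.07e-13) was the highest by the rule.

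Sox9, a transcription factor of astrocytes, had footprints at 70.5, 75.3, 70.6, 80.3 and 95.6 CPM and input at 6.82, 8.48, 6.67, 5.32 and 7.31 CPM. All 5 footprint values lay above all 5 input values, with a ratio of 3.50 (SE 0.11, adjusted p = 7.85e-13). The other 9 of the 12 highest were Cdkn1a, the cell cycle inhibitor p21, at 3.49, Kantr at 3.40, Camk2n2, an inhibitor of the kinase CaMKII, at 3.32, Kdelr2, a receptor that returns proteins to the endoplasmic reticulum, at 3.29, Tmem86a at 3.15, Myadm at 3.10, Fmod, the matrix protein fibromodulin, at 3.07, Mllt11 at 3.06 and Parm1 at 3.02. All 12 were low-sharing genes, and 10 of them have coding sequences under 1000 bases. Of all 10123 low-sharing genes, 2668 have coding sequences up to 1000 bases.

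**Figure D2:**
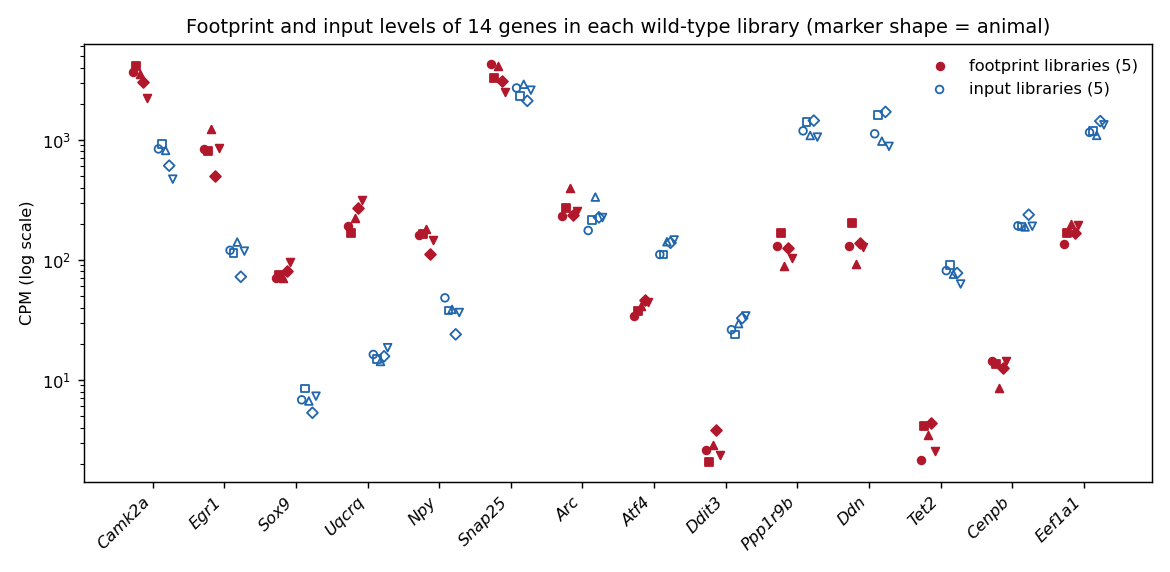
Footprint (filled) and input (open) levels in CPM on a log scale for 14 genes in each of the 5 wild-type animals, with the marker shape giving the animal. Footprints lie above input in every animal for the genes from Camk2a to Npy, the assays lie close for Snap25 and Arc, and footprints lie below input in every animal from Atf4 to Eef1a1.

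Among low-sharing genes the lowest ratios, a set picked out after the values were seen, were those of Igip, Ackr1 (-4.83), Dennd1b (-4.62), Bag1 (-4.56), Cep112 (-4.54), Tet2 (-4.47), mt-Nd1 (-4.45), Tet1 (-4.28), BC005537 (-4.12), Cdc14b (-4.08), Cenpb (-4.0) and Insyn1 (-3.97). Bag1 is annotated with no leader and no trailer, so its transcript may not hold the whole mRNA. Tet1 and Tet2 are the dioxygenases that oxidise methylcytosine in DNA. Tet2 had 2.13, 4.14, 3.48, 4.41 and 2.56 CPM of footprints in females 1 to 3 and males 1 and 2 against 81.3, 90.3, 76.0, 77.6 and 62.9 CPM of input. Cenpb, a centromere protein, had 14.3, 13.6, 8.63, 12.6 and 14.4 CPM of footprints against 192, 189.8, 188, 238 and 191 CPM of input. For both genes the lowest input value was more than 10 times the highest footprint value.

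Properties of the mRNA that the selection of libraries did not use ran with the ratio across the 10123 low-sharing genes. These are descriptions across genes of the same 10 libraries. The median fell from 0.46 for coding sequences up to 1000 bases (2668 genes) to 0.19 at 1000 to 2000 bases (3922 genes), -0.14 at 2000 to 3000 bases (1794 genes) and -0.51 above 3000 bases (1739 genes). Spearman's rho between ratio and coding length was -0.34. Of the shortest class 56.1% were called higher and 20.8% lower, and of the longest 20.7% and 59.9%.

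Upstream ATGs ran in the same direction. Genes with no ATG in the annotated leader had a median ratio of 0.31 (4646 genes), those with 1 of 0.01 (2232 genes), with 2 of -0.10 (1136 genes), with 3 of -0.14 (740 genes) and with 6 or more of -0.46 (684 genes). The first class includes genes annotated without a leader. Within every class of coding length the median was highest with no upstream ATG and lowest with 3 or more, from 0.61 against 0.22 in the shortest class to -0.27 against -0.77 in the longest.

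Coding sequences with a hydrophobic stretch, a run of 19 residues with a mean Kyte-Doolittle value of at least 1.6 as in signal peptides and membrane spans, had a median of 0.34 (3924 genes), against -0.07 for those without (6199 genes). This order too held in each class of coding length, with medians of 0.75 against 0.31 in the shortest class and -0.22 against -0.67 in the longest. The hydrophobic stretch was examined after high ratios of membrane proteins had been seen.

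**Figure D3:**
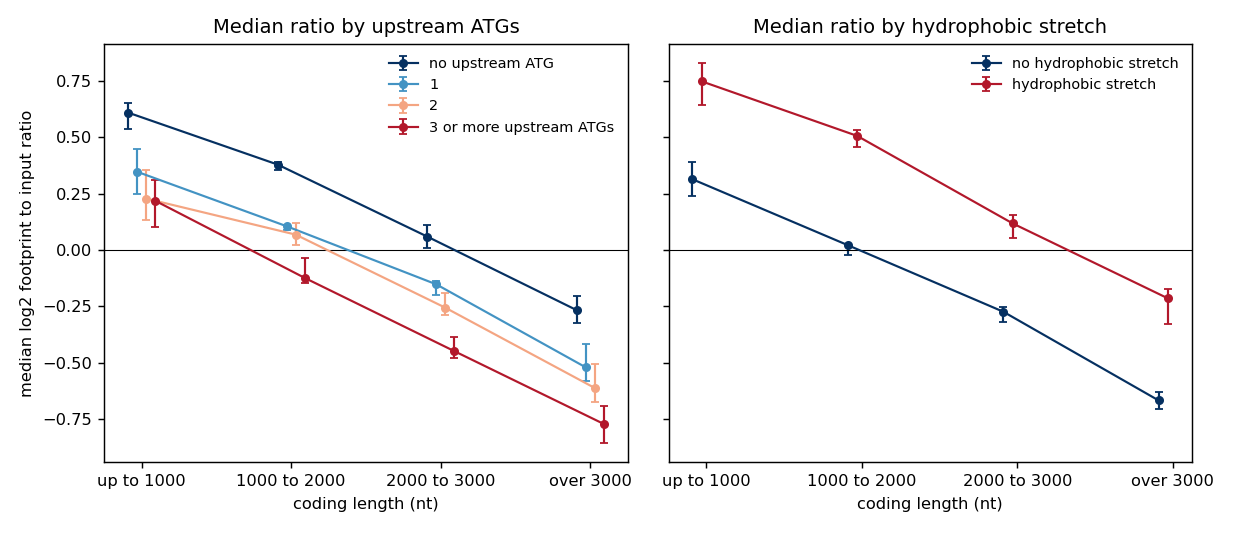
Median log2 footprint to input ratio of low-sharing genes (y axis) by coding length (x axis), divided by upstream ATGs (left) and by a hydrophobic stretch (right), with bars from the lowest to the highest of the 5 animals' medians. Every line falls with length, the line without upstream ATG lies above the others, and the line with a hydrophobic stretch lies above the line without.

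The start codon context differed less. A purine 3 bases before the start codon with a G just after it, the favoured context, went with a median of 0.15 (4418 genes), a purine alone with 0.09 (4123 genes), the G alone with -0.08 (733 genes) and neither with -0.07 (675 genes). Length of the untranslated trailer showed almost no relation (rho = -0.04). The share of the mRNA that is coding had rho = -0.17, with a median of 0.36 at a share up to 20% and -0.17 above 80%. It was not separated from coding length. A C followed by at least 4 bases that are each C or T at a RefSeq start (GRCm38.p6, reading strand only, the motif of TOP mRNAs) was found in 316 of 10660 tested genes with such a sequence, 2.96%. Its low-sharing holders had a median of 0.15 (227 genes), and the other low-sharing genes with a start sequence 0.08 (7807 genes). The run was found in only 14 of 57 cytosolic ribosomal proteins with a start sequence. Among translation factors known for a TOP element it was found in 2 of 10. The low-sharing holders include 0 of these ribosomal proteins and 1 of these factors, so their median does not describe known TOP mRNAs.

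None of the 15 tested mRNAs on the list of control by upstream reading frames was called higher (39.1% of all genes were), 13 were called lower and the median ratio was -1.41. The higher direction had 0 genes at an unadjusted p under 0.05 in edgeR and 0 by DESeq2. Low-sharing members numbered 9, of which 8 were called lower. Atf4, the transcription factor of the integrated stress response, had footprints at 34.3, 37.5, 41.7, 46.2 and 44.4 CPM in females 1 to 3 and males 1 and 2, and input at 111, 111, 142, 139 and 146 CPM. Footprints lay below input in all 5 animals, at a ratio of -1.66 (SE 0.07, adjusted p = 2.28e-11).

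Ddit3, the stress factor CHOP, was lower still at -3.35 (SE 0.14, adjusted p = 8.56e-12), with 2.07 to 3.81 CPM of footprints against 23.8 to 34.1 CPM of input. Ppp1r15a, the inducible subunit of the phosphatase that reverses stress signalling on eIF2, had a ratio of -3.63 (SE 0.20) and Atf5, a related transcription factor, -0.90 (SE 0.19, adjusted p = 0.000379). Ppp1r15b, the constitutive subunit of that phosphatase, did not pass the test at -0.10 (SE 0.08, adjusted p = 0.26), and its leader also holds 3 upstream ATGs. In the fit to low-sharing genes alone it was called lower at -0.19 (adjusted p = 0.0348), and with library totals alone at -0.32 (adjusted p = 0.00218). Amd1, an enzyme of polyamine synthesis whose short frame is printed above, had 0 footprints against 213 input counts, at least 41.8-fold lower, but all of its coding 28-mers occur in other genes. Odc1, another polyamine enzyme, stood at -2.58 (SE 0.14), with 84.4% of its coding 28-mers shared.

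Fth1 and Ftl1, the heavy and light chains of ferritin, carry the letters of the loop of an iron responsive element in the leader, as 8.68% of the 13170 tested leaders do. The pattern searched, on the mRNA strand, was a C, any 5 bases, CAGTG and any base. It is shown in capitals, with the 5 free bases of its stem in lower case.
Fth1: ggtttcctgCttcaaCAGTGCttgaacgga
Ftl1: tgtgtcttgCttcaaCAGTGTttgaacgga

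The Fth1 site lies at chromosome 19, 9982729 to 9982758 on the plus strand, and the Ftl1 site at chromosome 7, 45459781 to 45459810 on the minus strand, both in the leader. Fth1 had a ratio of -0.83 (SE 0.09, adjusted p = 3.86e-07, 26.1% of coding 28-mers shared) and Ftl1 -5.19 (SE 0.21, adjusted p = 6.78e-12, 96.0% shared). Alas2, an enzyme of heme synthesis, stood at -0.84 (SE 0.13) and Slc40a1, the iron exporter ferroportin, at 0.02 (SE 0.14, not called).

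The translation machinery itself had low ratios, with high sharing. Of 78 tested cytosolic ribosomal proteins, 74 were called lower and 2 higher, with a median of -3.83 (-4.11 to -3.62 over the animals), and a median of 97.1% of their coding 28-mers were shared. None was a low-sharing gene. The 2 called higher were Rps27l at 0.66, a paralog of a small-subunit protein, and Rack1 at 0.41, a scaffold on the small subunit with only 5.5% shared. Of 16 translation factors known for a TOP element, 14 were lower and 2 higher, with a median of -1.0 and 69.9% of 28-mers shared at the median.

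Eef1a1, the factor that brings aminoacyl-tRNA to the ribosome, had footprints at 134, 167, 198, 169 and 193 CPM and input at 1154, 1192, 1089, 1432 and 1334 CPM, with a ratio of -2.85 (SE 0.09, adjusted p = 7.43e-13, 89.4% shared). Eef2, the translocation factor, was at -0.41 (SE 0.06) with 31.6% shared, and Eif3f, a subunit of the initiation factor eIF3 and the only low-sharing member, was called higher at 0.55 (SE 0.07). Of the 44 other initiation and elongation factors 18 were higher and 19 lower, close to the 39.1% and 39% of all genes, and of the 23 low-sharing ones 12 and 9 (median 0.35). Eif4g2, an initiation factor that does not bind the cap-binding protein, had 164 to 235 CPM of footprints against 840.0 to 962 CPM of input, a ratio of -2.22 (SE 0.08, adjusted p = 1.89e-12). It counts as a low-sharing gene by an annotated transcript with 483 coding bases and no trailer, which may not hold the whole coding sequence. Eif2b1, a subunit of the exchange factor of eIF2, was at 1.30 and Eif3k at 1.18.

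Both genomes of the mitochondrion were represented. All 11 called mRNAs of the 12 tested from the mitochondrial genome, which are translated by mitochondrial ribosomes, were lower in edgeR, with a median of -4.29, and 0 were higher at an unadjusted p under 0.05 or by DESeq2. A median of 40.9% of their coding 28-mers were shared. Whether mitochondrial ribosomes were recovered like cytosolic ones was not tested. These ratios may therefore not measure loading on one scale with those of nuclear mRNAs. mt-Nd1, a complex I subunit and the one low-sharing member, had footprints at 168, 97.4, 118, 150.1 and 79.5 CPM against 2517, 3376, 2470, 1976 and 3025 CPM of input (-4.45, SE 0.19, adjusted p = 1.73e-11). Of the 75 nuclear-encoded respiratory chain genes 41 were higher and 24 lower (median 0.29), and of the 32 low-sharing ones 25 and 4 (median 0.67). Besides Uqcrq, Atp5d, of the ATP synthase, reached 2.73 and Sdhc, of succinate dehydrogenase, 2.22. Mitochondrial ribosomal proteins had 38 higher and 21 lower of 76, and 26 and 7 of the 40 low-sharing ones, led by Mrps2 at 1.92.

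Synaptic mRNAs went in both directions. Camk2a, the alpha subunit of the kinase CaMKII that is central to synaptic plasticity, had footprints at 3704, 4150, 3522, 3017 and 2221 CPM in females 1 to 3 and males 1 and 2 and input at 839.9, 927, 816, 609 and 470.4 CPM. Footprints were above input in all 5 animals at a ratio of 2.19 (SE 0.06, adjusted p = 2.07e-13). Grin1, the obligatory NMDA receptor subunit, was at 1.95 (SE 0.06, 33.9% shared) and Camk2b at 1.21 (SE 0.06). Yet on the list of glutamate receptors and postsynaptic density genes as a whole 20 of 55 were higher and 30 lower, with a median of -0.20, and of the 47 low-sharing ones 16 and 26.

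The lowest of that list were scaffolds. Ppp1r9b, the spine protein spinophilin, had footprints at 131, 166, 89.1, 125 and 104 CPM against 1188, 1402, 1087, 1446 and 1054 CPM of input, and the assays were far apart in every animal (-3.35, SE 0.08, adjusted p = 1.6e-13). Dlgap3, a scaffold next to PSD-95, stood at -2.74 (SE 0.09) and Shank1, which links such scaffolds, at -2.18 (SE 0.11). Ddn, dendrin, a protein of dendrites, had 129.6, 203, 93.2, 137 and 128 CPM of footprints against 1123, 1608, 975, 1710 and 883 CPM of input (-3.19, SE 0.11). Of 14 mRNAs known to be carried into dendrites 5 were higher and 8 lower, each of the 8 by at least 2-fold, so Camk2a and Ppp1r9b lay at opposite ends of one list.

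Nrgn, the calmodulin-binding protein neurogranin, was at 0.85 (SE 0.10) and Bdnf, a growth factor of neurons, at 0.62 (SE 0.08). Large mRNAs known as targets of FMRP, the protein lost in fragile X syndrome, had 9 higher and 20 lower of 33 (median -0.57), with a median coding length of 7407 bases. Of the 31 low-sharing ones 8 were higher and 19 lower. These values are near those of all low-sharing genes above 3000 coding bases, 20.7% higher and 59.9% lower (median -0.51). The part of length in the list's values was not tested. Lrp1, a lipoprotein receptor, at 1.01 and Map1b, a microtubule protein, at 0.58 were higher, the latter not called without the animal block (0.58, adjusted p = 0.0554), and Ncor1, a corepressor, at -1.97 and Kmt2a, a histone methyltransferase, at -1.78 were lower.

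Presynaptic genes leaned the other way, with 40 of 59 higher and 15 lower (median 0.65), and 35 and 13 of the 52 low-sharing ones. Their median coding length was 1293 bases, against 2721 bases for glutamate receptors and postsynaptic density genes, and the part of length was not tested. The highest were Slc32a1, the vesicular GABA transporter, at 2.26, Sncb, beta-synuclein, at 2.22 and Vamp2, a SNARE protein of synaptic vesicles, at 2.20. The lowest were the long mRNAs of the release site, Unc13c (-3.17), Rims2 (-2.09) and Rims1 (-1.82). Snap25, the SNARE partner of Vamp2, had 4294, 3305, 4146, 3092 and 2525 CPM of footprints and 2704, 2327, 2905, 2114 and 2593 CPM of input. Footprints exceeded input in 4 of 5 animals and not in male 2 (0.44, SE 0.08, adjusted p = 0.000153).

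Neuropeptides and granins, which pass through the secretory pathway, were higher for 24 of 28 and lower for 1 (median 1.10, 1.04 to 1.10 over the animals), and for 23 and 1 of the 26 low-sharing ones. Npy, neuropeptide Y of interneurons, had footprints at 162, 164, 179.9, 112 and 146 CPM against 48.2, 37.9, 38.7, 23.9 and 36.4 CPM of input (2.06, SE 0.08, adjusted p = 9.45e-12). Tac2, a tachykinin, was at 2.46 and Pdyn, prodynorphin of granule cells, at 2.01, and the one called lower was Pam, the enzyme that amidates peptides, at -0.72. Of the 28 members, 75% have a hydrophobic stretch, and the median coding length is 601.5 bases.

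Potassium channel subunits had 23 higher and 23 lower of 56 (median -0.06), near the shares over all genes (39.1% and 39%). Of the 42 low-sharing ones 17 were higher and 20 lower (median -0.15), against 41.9% and 35.2% of all low-sharing genes. Kcnj10, the inward rectifier of astrocytes, was highest at 2.30 and Kcnq3, a subunit of the M current, lowest at -1.75. Among 28 sodium and calcium channel subunits 11 were higher and 12 lower, also near the shares over all genes, and of the 24 low-sharing ones 11 and 8. At the extremes of that list, the pore subunits Scn1a (-1.22) and Cacna1d (-1.17) were lower and the auxiliary subunits Cacna2d2 (1.56), Scn3b (1.54) and Scn2b (1.33) higher, while Cacnb2, also auxiliary, was at -1.08.

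Activity-regulated genes were among the highest, with 31 of 39 higher and 3 lower (median 0.98, 0.80 to 1.26 over the animals), and 31 and 1 of the 37 low-sharing ones. Egr1, a transcription factor induced by neuronal activity, had footprints at 834, 809, 1224, 497 and 862 CPM against 120.1, 114, 141, 72.3 and 118 CPM of input (2.88, SE 0.07, adjusted p = 1.44e-13), although its annotated leader holds 11 upstream ATGs. Ier2 was at 2.51, Egr3 at 1.74, Fos at 1.26 and Npas4 at 1.21, all factors of the same response. Arc, a protein of synapses that is also induced by activity, had 234, 269, 399.7, 236 and 254 CPM of footprints against 176, 216, 334, 226 and 225 CPM of input. Its ratio was 0.24 (SE 0.07, adjusted p = 0.00436), and the call was lost with library totals alone (0.03, adjusted p = 0.705), in males alone, without females 1 and 2, without the animal block (0.24, adjusted p = 0.247) and in the fit to low-sharing genes (0.15, adjusted p = 0.0531). Homer1, a scaffold of glutamate receptors, was lower at -1.14 (SE 0.08).

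Nuclear regulators were low as groups. Of 50 chromatin regulators 39 were lower and 4 higher (median -0.93), and of their 45 low-sharing members 36 and 4. The median coding length of this list was 5673 bases. Among all low-sharing genes above 3000 coding bases 59.9% were lower (median -0.51), and the part of length in the list's values was not tested. Besides Tet1 and Tet2, Ezh2, the Polycomb methyltransferase, stood at -3.26 (SE 0.15). Of 404 zinc finger genes, taken by symbol, 332 were lower and 20 higher (median -1.23). Within the 245 low-sharing ones the counts were 190 lower and 15 higher (median -0.97), against 35.2% lower among all low-sharing genes. Their median coding length was 1737 bases.

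Splicing factors had 13 higher and 22 lower of 41 (median -0.18), and 5 and 10 of the 19 low-sharing ones, with Clk4 (-1.53) and Clk1 (-1.32), kinases of splicing factors, among the lowest. Histone genes had 6 higher and 24 lower of 36, with 82.3% of coding 28-mers shared at the median.

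Genes of glia and vessels were high as groups. Of 27 astrocyte genes 24 were higher and 1 lower (median 1.21), of 28 oligodendrocyte genes 25 and 3 (median 1.08), of 20 microglia genes 17 and 0 (median 1.11) and of 25 endothelial and mural genes 15 and 4 (median 0.58). Of the low-sharing members 20 of 22 astrocyte and 16 of 17 microglia genes were higher, of the oligodendrocyte genes 21 of 24 were higher and 3 lower, and of the endothelial and mural ones 13 and 3 of 18. In the 4 lists 59.3%, 60.7%, 80% and 80% have a hydrophobic stretch, against 36.3% of all genes. Median coding lengths are 1149, 892.5, 886.5 and 1437 bases, against 1437 bases. Among all low-sharing genes with a stretch and up to 1000 coding bases 67.8% were higher (median 0.75). The part of these features was not tested. No microglia gene passed edgeR's adjusted threshold in the lower direction, 1 did at an unadjusted p under 0.05 and 0 by DESeq2. Atp1b2, a sodium pump subunit of astrocytes, reached 2.82, Gpr17, a receptor of oligodendrocyte precursors, 2.81, and Laptm5, a lysosomal protein of microglia, 2.06. Glul, glutamine synthetase, was the astrocyte gene called lower (-0.36, 57.3% shared).

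Choroid plexus genes had 19 higher and 0 lower of 23 in edgeR (median 0.99, 0.61 to 1.28 over the animals), and 0 were lower at an unadjusted p under 0.05 or by DESeq2. Of the 23, 87.0% have a hydrophobic stretch, and the median coding length is 1020 bases. Ttr, the thyroid hormone carrier, had footprints at 127, 271, 6060, 11580 and 12520 CPM and input at 39.7, 107, 1586, 2741 and 3378 CPM. Its level differed widely between animals, while its ratio stayed between 1.33 and 2.08, and without the animal block it was not called (1.96, adjusted p = 0.162). Hippocampal field markers had 11 higher and 5 lower of 20, with Wfs1 and Fibcd1 of field CA1 at 2.15 and 1.95 and Trpc6, a cation channel, at -2.33.

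**Figure D4:**
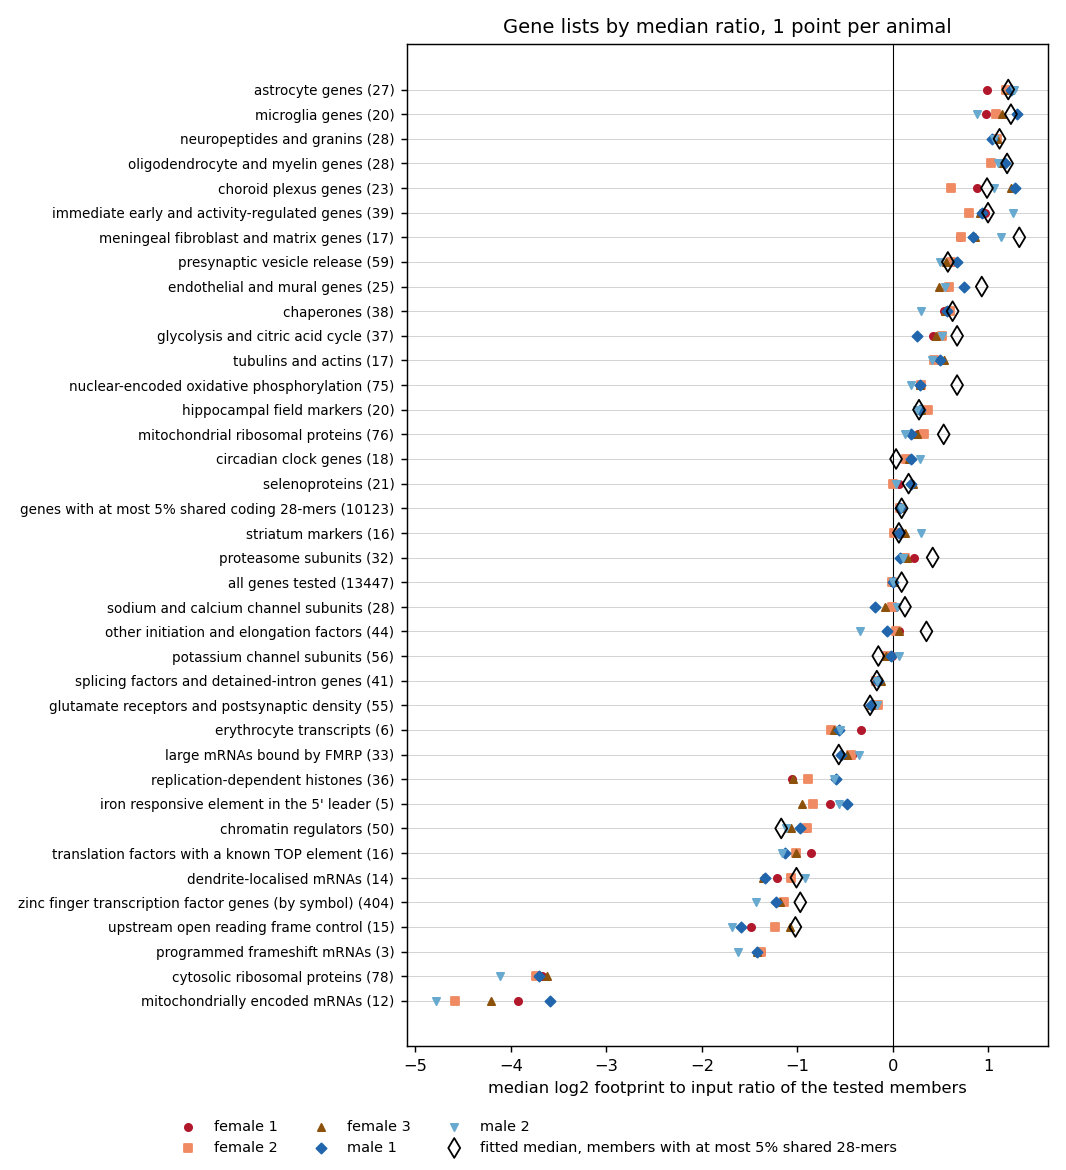
Median log2 footprint to input ratio of the tested members of each gene list (x axis, 1 point for each of the 5 animals), with the number of members in parentheses and open diamonds for the fitted median of the members with at most 5% shared 28-mers. Lists and diamonds of under 3 genes are not drawn. Glial, neuropeptide and activity-regulated lists lie near 1, and ribosomal protein and mitochondrially encoded mRNAs near -4 in every animal.

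Housekeeping groups lay between. Glycolysis and citric acid cycle genes had 22 higher and 6 lower of 37 (median 0.41), with Got1, the cytosolic aspartate aminotransferase, at 1.59 and the neuronal enolase Eno2 at 1.36. Chaperones had 28 higher and 8 lower of 38, and 18 and 0 of the 19 low-sharing ones in edgeR, with 0 lower at an unadjusted p under 0.05 and 0 by DESeq2. Hspa8, the constitutive heat shock protein, was at -3.49 with 95.5% of its coding 28-mers shared, and Pdia3, a disulfide isomerase of the endoplasmic reticulum, at 1.43 with none. Proteasome subunits had 13 higher and 9 lower of 32, circadian clock genes 9 and 3 of 18, and selenoproteins 8 and 8 of 21. Of all genes 39.1% were higher and 39% lower. Selenoproteins lay near both shares (38.1% and 38.1%). Proteasome subunits lay near the higher one (40.6%), with 28.1% lower, and clock genes had 50% and 16.7%. The medians of the last 3 groups were 0.06, 0.17 and 0.11. Scaling by totals alone, which moves all genes alike, made them negative, and relative to the median of all genes they were then 0.049, 0.16 and 0.096. Actb, cytoskeletal actin, was at 0.77 (SE 0.07). Qtrt1 and Qtrt2, the subunits of the enzyme that puts queuine into tRNA, were at 0.04 (SE 0.16) and 0.01 (SE 0.15), neither called, and at -0.18 and -0.21 with library totals alone.

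The ratio was also compared between the 3 females and the 2 males, whose ages differ as well. In the assay by sex term of the same model 339 genes (2.52%) had an adjusted p under 0.05, 195 with a higher ratio in females (1.45%) and 144 with a lower one (1.07%). Ubb, a polyubiquitin gene, had footprints at 575, 552 and 683 CPM in females and 1332 and 1238 CPM in males, with input at 517, 476 and 489.9 CPM and 455 and 478 CPM. Footprints of the males stood apart and the input did not (female minus male -1.18, SE 0.11, adjusted p = 1.13e-05, 86.8% of coding 28-mers shared). Mt2, a metallothionein that binds zinc, was also lower in females (-1.15, SE 0.13, adjusted p = 0.00015). Unc13c was higher in females, at 25.4, 16.9 and 18.8 CPM of footprints against 5.39 and 5.32 CPM in males (1.18, SE 0.19, adjusted p = 0.00566), with input at 173, 106 and 141 CPM in females and 73.3 and 107 CPM in males.

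The genes called in the 2 directions differed in coding length. Those with a lower ratio in females had a median coding length of 679.5 bases, those with a higher ratio 3324 bases, and all matched genes tested 1437 bases. The shift was present across the low-sharing genes as a whole, with a median female minus male difference of -0.10 up to 1000 coding bases and 0.11 above 3000. The part of length in these calls was not tested, nor was that of the choroid plexus and striatum levels that differ between the animals. The calls depended on the libraries: 15 were called without female 1, 43 without female 2, 137 without female 3 and 294 without male 2, while 2001 were called without male 1, the deepest footprint library. Without either male the male group is 1 animal, which is assumed to vary like the females. Without females 1 and 2, whose choroid plexus levels were low, 3 genes were called, with female 3 alone against the males and assumed to vary like them. Without the block for the animal edgeR called 0 genes, with 1248 at an unadjusted p under 0.05, and DESeq2 with the block called 303.

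**Figure D5:**
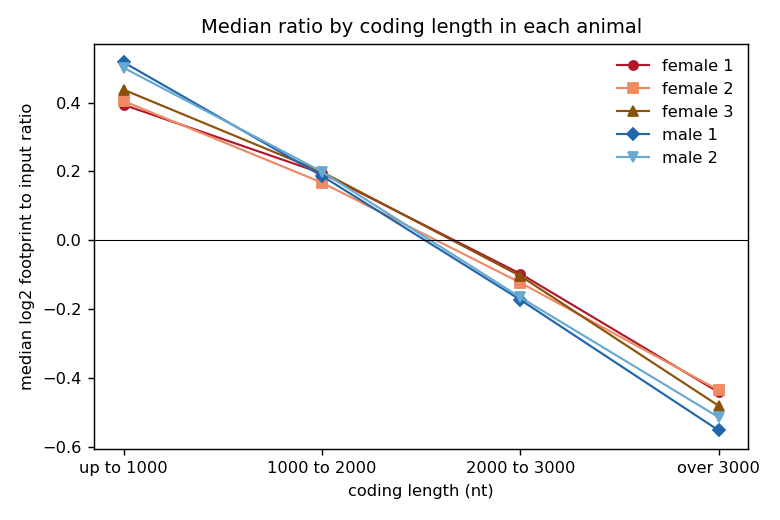
Median log2 footprint to input ratio of low-sharing genes (y axis) in 4 classes of coding length (x axis), 1 line per animal. All 5 lines fall with length, and those of the 2 males start higher and end lower than those of the 3 females.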

How the data were processed

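Ribosome footprints and input RNA of 5 wild-type hippocampi were analysed from a table of counts per gene that the authors deposited (raw counts, no normalisation). The submitters' processing notes name cutadapt 1.8.1, Trimmomatic 0.39, Bowtie 1.0.0 and 1.2.2 and SAMtools 0.1.19. Not given in the sources used here: genome build, counted part of each gene, and treatment of reads with several matches. Counts of footprints per codon, deposited by the authors for the same libraries, served only to check that table counts lie in coding sequence.

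Genes were filtered with edgeR 4.0.16 (filterByExpr, R 4.3.3) and scaled by the trimmed mean of M values. Footprint against input was tested by the quasi-likelihood F test with the animal as a block and Benjamini-Hochberg adjustment over all genes tested. The block rests on the animal numbers in the labels, which give each animal 1 footprint and 1 input library. Deviations from the group means correlated at 0.337 to 0.492 within an animal. The sex difference was the assay by sex term. A standard error is the size of the log2 ratio divided by the square root of F. Animals' own ratios used log2 CPM with a prior count of 2. The script was tested on simulated counts. Genes with 0 footprints were given a bound from 3 counts over the group, and intervals cover counting error only, since reads carry no molecular identifiers. No pair of replicates agreed within sampling noise (chi-square per degree of freedom 5.77 to 15).

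Genes were matched to GENCODE M21 by symbol or RefSeq synonym (17939 of 18054). The principal transcript (best APPRIS tag, then longest coding sequence) gave coding length, upstream ATGs, start context and the share of coding 28-mers present in transcripts of other genes on either strand. RefSeq protein sequences were not used. Overlapping and antisense genes share reads unless counting used strand, which is not given.

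Named genes were the 12 highest and 12 lowest called ratios with 1 direction in all animals and at least 10 CPM, up to 3 called members at each end of each list, a fixed set, and the 5 sex differences at each end; symbols of the form Gm, LOC or Rik were passed over at the 12 extremes (1 at the low end). Malat1 and Meg3 of the fixed set were not analysed here, and some other genes that the rule names are not reported here. Members and lists were chosen with earlier results of these data known. Alternatives were other scalings (RLE, upper quartile, library totals), DESeq2 1.42.0, other filters, no block, each animal left out, 1 sex alone, no mitochondrially encoded genes, and, added after the data were seen, low-sharing genes only and leaving out the 2 females of low choroid plexus level.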

Additional observations from a re-analysis of the deposited data

Results flagged for a closer look

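Among 278 sets of 5 animals examined, 239 named genes and 39 gene lists or sets of genes, 20 had an animal far from the other 4, and chance alone gives about 1 in 20. In male 2 the list medians stood apart for cytosolic ribosomal proteins (-4.11), nuclear-encoded respiratory chain genes (0.19), programmed frameshift mRNAs (-1.62), chaperones (0.30) and zinc finger genes (-1.43). The ratio of male 2 stood apart for Oaz2 (-1.62), U2af1 (2.23), Ier2 (3.09), Kcnk1 (1.98), Eno2 (1.62), Zfp580 (2.44), Snap25 (-0.038) and Fos (1.68), and that of male 1 for Grin1 (1.85) and Fcer1g (3.86). Females stood apart for Igip (-5.39) and Gjc3 (-0.64) in female 1, Amd1 (-3.59) and Clk1 (-1.82) in female 2 and Egr1 (3.12) in female 3. The values of Igip and Amd1 rest on 3 and 0 footprints and are set by the prior count.

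The test of the sex difference called 339 genes. By the rule the highest in females were Sbsn (2.5), Tnnc1 (1.57), Unc13c (1.18), Dnajb6 (1.04) and Thg1l (1.03), and the lowest Smim1 (-1.92), Zfp706 (-1.90), Cited4 (-1.71), Gm14325 (-1.47) and Snrnp25 (-1.35), as log2 female minus male. All but Unc13c had a mean of at most 22.6 CPM.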

How the results depend on the processing

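Counts of genes called higher and lower between footprints and input stayed within 1.5 times of the reported counts under every alternative run, with and without the 2-fold limit. Leaving out 1 animal gave 9908 to 10620 calls, 4907 to 5336 higher and 5001 to 5284 lower. Without the replicate block 9386 genes were called, 4701 higher and 4685 lower, and 9382 of them were shared with the block. Low-sharing genes alone gave 3904 higher and 3951 lower, and leaving out the 2 females of low choroid plexus level 4828 and 4870.

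The sex difference depended on the libraries and the model. It had 0 calls without the replicate block (0 in either direction), 749 with no filter on low counts (415 higher and 334 lower in females), and 3 without the 2 females of low choroid plexus level (0 higher, 3 lower, with 1 female left). Leaving out 1 animal gave 15 to 2001 calls, 3 to 1127 higher and 12 to 874 lower, the most without male 1, which leaves 1 male assumed to vary like the females. The cause was not tested. Of those 2001 calls, 324 were among the 339.

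Of the single named ratios, Drd2 turned from -0.35 to 0.13 in males only and Smim1 from 1.03 to -0.018 in females only, neither called in the alternative. Of 3920 comparisons of a named ratio with an alternative, 3857 kept direction and call, and 16 more, of 6 genes called in neither fit, changed sign. In comparisons of list medians with an alternative, 520 were rated the same and 107 as moved. Limits: 5 animals, footprint depth from 5357812 counts, ratios relative to the bulk of genes, GENCODE transcripts that may not be those of the tissue, and unknown counting of reads with several matches.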

Other observations

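Cytoskeletal and matrix genes showed how far single members of a family may lie apart. Tubulins and actins had 9 higher and 4 lower of 17 (median 0.35), with Tubb4a, a beta-tubulin of neurons and oligodendrocytes and the only low-sharing member, at 1.64 and Tuba1a at -1.20 and Tuba1b at -2.24, with 98.2% and 97.6% of their coding 28-mers shared. Meningeal fibroblast and matrix genes had 14 higher and 2 lower of 17 (median 0.85). Below Fmod came Mgp, matrix Gla protein, at 1.84 and Dcn, decorin, at 1.76, while Col3a1, a collagen chain with a long coding sequence, was lower at -1.10.

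Hemoglobin mRNAs divided by chain. Of 6 erythrocyte genes 2 were higher and 4 lower. Hba-a1 (0.88) and Hba-a2 (0.65), the alpha chains, were higher, and Hbb-bs (-4.74) and Hbb-bt (-2.75), the beta chains, lower, with 93.0% to 94.0% of coding 28-mers shared in these 4. Programmed frameshift mRNAs had 1 higher and 2 lower of 3: Peg10 at 0.88, Oaz2, an antizyme, at -1.45 and Oaz1 at -5.35 (91.6% shared). Of the long noncoding RNAs in the table Tug1 was higher at 1.16 and Snhg11 lower at -2.35, and no coding sequence was matched for Tug1. Striatum markers had 6 higher and 4 lower of 16 (median 0.06, and 0.054 relative to all genes with library totals alone). Their higher share of 37.5% was near the 39.1% of all genes, and 25% were lower against 39%.

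The highest histone value was that of Hist1h4m at 5.78 (SE 0.42), on 7 input counts in total with 0 in both males, with all of its coding 28-mers shared, beside H3c6 at -4.31 with 85.4% shared. Among the 328 tested genes with over 90% shared, 253 were called lower and 41 higher. Rpl39, of the large ribosomal subunit, also had all of its coding 28-mers shared and stood at -0.02. These genes were singled out after their values were seen.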
